A study of Mus musculus with 12 samples.

Results

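Genes known from tendon, perichondrium and periosteum, 10 in number, were followed across the embryonic tibia: the transcription factors Scx, Mkx, Twist1 and Twist2, the membrane protein Tnmd, the matrix proteins Dpt, Postn, Tnc and Tnn, and the secreted factor Ptn. They were chosen by name, as 10 of the 18194 genes that the array names by a single symbol, and 14 of its 45101 probe sets carry one of these names. A gene was represented by its probe set with the highest mean log2 signal. The tibiae came from CD1 mouse embryos at embryonic day 15.5, untreated and of no named mutant line, and were cut by hand into zone I (the ends of the bone, with resting and proliferating chondrocytes), zone II (the next piece inward, with mostly prehypertrophic and hypertrophic chondrocytes) and zone III (the middle of the shaft, with the latest hypertrophic chondrocytes and mineralized bone). Each zone was hybridized to 4 Affymetrix arrays, lettered A to D. Per the study's methods the RNA of a zone was pooled within a litter and each of 4 litters was a separate experiment. No sample was tendon or perichondrium alone, so every value is a level in a whole zone piece, in which fewer cells of a type and less RNA per cell cannot be told apart.

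Tendon cells arise from progenitors that express Scx, a basic helix-loop-helix (bHLH) transcription factor, and mature under Scx and the homeobox factor Mkx, with the membrane protein tenomodulin (Tnmd) as a late marker. The perichondrium is the fibrous sheath of the cartilage model, and it becomes the periosteum where bone forms beside it. Periostin (Postn) and the tenascins (Tnc, and Tnn, also called tenascin-W) are matrix proteins of such sheaths that bind cell surface integrins, dermatopontin (Dpt) binds decorin and collagen fibrils, and pleiotrophin (Ptn) is a heparin-binding growth factor. Twist1 and Twist2 are bHLH factors of mesenchyme that restrain osteoblast differentiation through Runx2.

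As bHLH factors bind the E box, spelled CANNTG with N for any base, the RefSeq promoters of these genes (build GRCm38.p6, 250 bases before to 50 bases after an annotated start) were read for it on both strands. The table held 10 entries for 8 of these genes, and none was used for Scx and Mkx. CANNTG lay in the promoters of 2 genes, Dpt with 7 matches and Tnc with 3 and 2 in its overlapping entries, and in none of the other 6 genes, while 72.3% of all 32851 promoters held it. Among its spellings CAGCTG lay in 16.3%, CAGATG in 17.2% and CATATG in 3.9% of all promoters, and of these Dpt held CAGCTG at 2 places and CAGATG, on the opposite strand, at 1. TATAAA, also read on both strands, lay in the promoters of 4 genes (Dpt, Postn, Tnc and Twist1) and in 13.6% of all promoters. The promoters of 3 genes are shown because these genes had large differences between zones and differ most in these motifs. Capitals mark CANNTG and TATAAA, which do not overlap here. The Dpt promoter lies at chr1:164796413-164796712 on the plus strand, the second Postn promoter at chr3:54360857-54361156 on the plus strand, and the Tnmd promoter at chrX:133850758-133851057 on the plus strand. In Dpt TATAAA began 12 bases after the annotated start, in Postn it stood at -26 from it, and Tnmd had neither motif. A match is a description of letters and not a site of binding.
Dpt: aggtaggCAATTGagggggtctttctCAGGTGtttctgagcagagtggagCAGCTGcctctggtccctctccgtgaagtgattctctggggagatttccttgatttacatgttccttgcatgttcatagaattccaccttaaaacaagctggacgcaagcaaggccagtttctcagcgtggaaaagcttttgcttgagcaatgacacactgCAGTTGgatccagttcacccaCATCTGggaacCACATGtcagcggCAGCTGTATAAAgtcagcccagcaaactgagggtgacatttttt
Postn: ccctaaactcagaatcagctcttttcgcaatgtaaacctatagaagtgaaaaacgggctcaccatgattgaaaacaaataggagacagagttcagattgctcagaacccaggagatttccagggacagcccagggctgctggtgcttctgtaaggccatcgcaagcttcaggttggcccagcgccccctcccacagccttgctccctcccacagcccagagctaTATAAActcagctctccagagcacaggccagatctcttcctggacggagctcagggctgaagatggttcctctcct
Tnmd: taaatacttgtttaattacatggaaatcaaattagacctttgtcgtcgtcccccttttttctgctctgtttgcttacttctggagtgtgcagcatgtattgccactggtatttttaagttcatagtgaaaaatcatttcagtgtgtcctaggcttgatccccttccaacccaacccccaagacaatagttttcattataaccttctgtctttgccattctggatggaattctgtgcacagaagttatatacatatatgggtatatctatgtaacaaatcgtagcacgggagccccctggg

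What these genes shared was a lower level in zone II than in zone I. Of the 10 genes 9 had a mean signal of 50 or more in some zone, the floor set for testing, and all 9 were called lower there, at an adjusted p under 0.05. From zone II to zone III they parted. Tnmd, Postn, Tnc, Twist1 and Twist2 were higher in zone III than in zone II, Mkx was lower, and Scx, Dpt and Ptn did not pass the test. Against zone I, zone III was higher only for Tnc and Twist1 among the 9 genes, lower for Scx, Tnmd, Mkx, Dpt, Postn and Ptn, and Twist2 did not pass. The test was limma, a linear model with moderated errors, on the log2 signal of 22255 probe sets and all 12 arrays, with Benjamini-Hochberg adjustment within each comparison. Signals are linear intensities in the deposited unit, given as the mean ± SD of 4 arrays, and log2 differences carry the SE of the model.

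Over all 11807 genes that passed the floor, 16% were higher and 25.4% lower in zone II than in zone I, beside 0 and 9 of the 9 genes here. Between zones III and II 30.8% of all genes were higher and 22.7% lower in zone III, beside 5 and 1 of these 9 (4 and 2 with median centring, 6 and 0 with centring on ribosomal protein genes). Zone III exceeded zone I in 21.6% and fell below it in 21.7% of all genes, beside 2 and 6 of these 9. The median log2 difference of the 9 genes was -2.05 for zone II minus zone I, 0.71 for zone III minus zone II and -1.36 for zone III minus zone I. Over all genes these medians were -0.09, 0.08 and -0.01. The 4 arrays of one zone did not overlap with those of the other for 9, 4 and 8 of the 9 genes in these comparisons. The share of all genes without overlap was not counted, so whether these numbers are unusual cannot be read. Any 2 of these comparisons share a zone, so their values are given side by side and not as separate support.

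**Figure D1:**
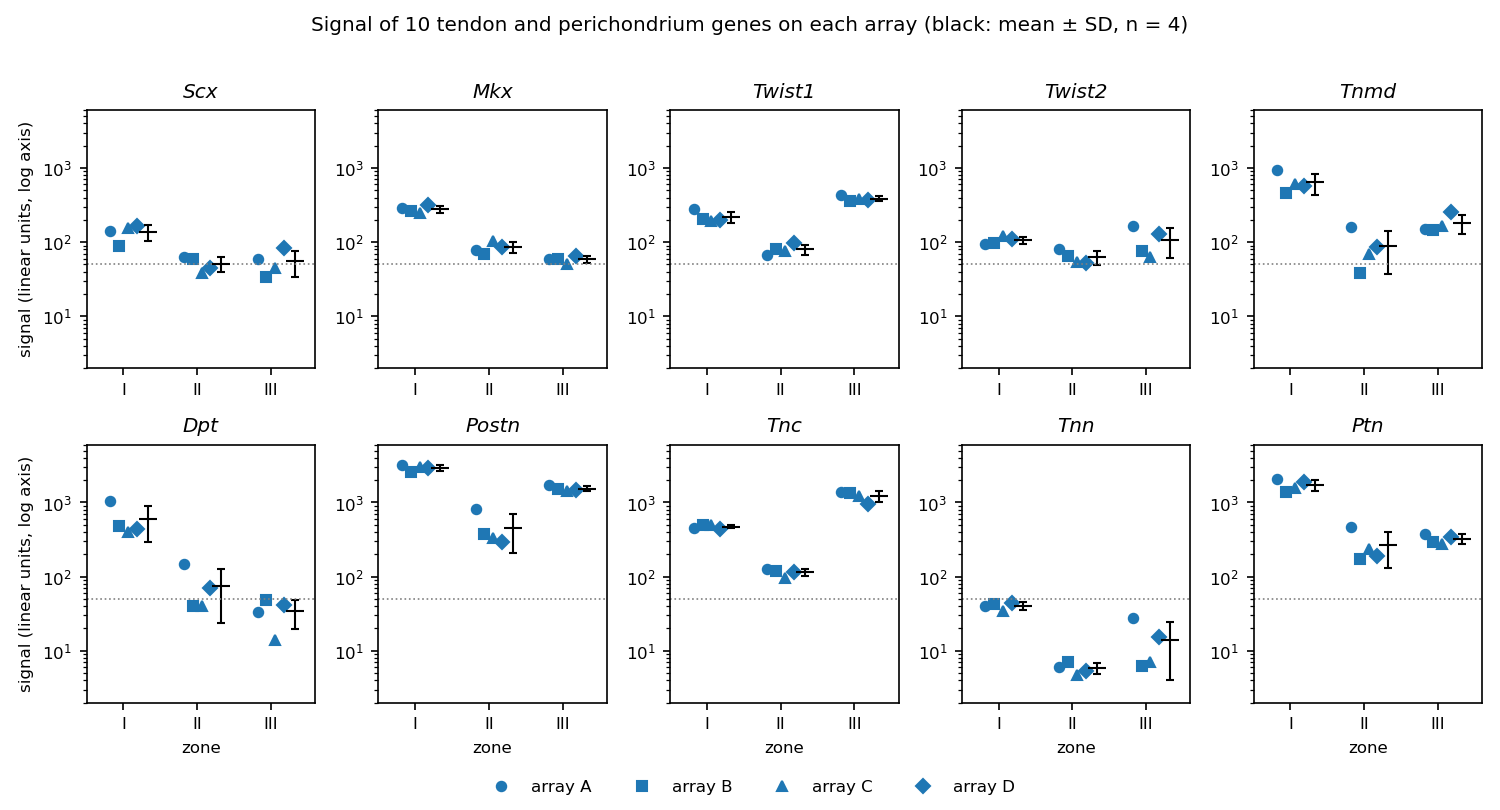
Signal of each of the 10 genes on each array (linear units on a log axis) in zones I, II and III; symbols are the array letters, black bars the mean ± SD of 4 arrays, and the dotted line the floor of 50. Every gene had its highest zone II array below its lowest zone I array, and Tnc and Twist1 had all 4 zone III arrays above those of zone I.

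Scx, the factor of tendon progenitors, had signals of 142, 89.9, 156 and 166 on arrays A to D of zone I, 62.3, 58.6, 38.7 and 45.2 in zone II, and 58.5, 34.2, 45.5 and 83.5 in zone III. All zone I arrays lay above those of the other zones, which overlapped with each other. The mean was 139 ± 34.0, 51.2 ± 11.1 and 55.4 ± 21.2 in zones I, II and III. The log2 difference was -1.43 ± 0.28 for zone II minus zone I (2.69-fold lower, limma adjusted p = 0.00157) and -1.36 ± 0.28 for zone III minus zone I (2.57-fold lower, adjusted p = 0.00176). Between zones III and II the difference was 0.06 ± 0.28 (adjusted p = 0.871), a value whose sign changed with the scaling, being -0.19 after quantile normalization. A second Scx probe set, below the floor, averaged 43.4 ± 4.61, 14.2 ± 3.60 and 11.5 ± 4.57 in zones I, II and III. In a limma fit without the floor it differed by -1.64 (zone II minus zone I, adjusted p = 0.00561), -0.39 (zone III minus zone II, adjusted p = 0.458) and -2.03 (zone III minus zone I, adjusted p = 0.00114). In the RefSeq gene table Scx lies within the span of Bop1, a gene of ribosome assembly, which was 0.41 ± 0.10 higher in zone II than in zone I (adjusted p = 0.00606). Whether probes for Scx also read Bop1 was not tested.

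Mkx, the homeobox factor of collagen production in tendon, was lower at both steps inward, the only one of the 9 genes tested that was called so in the fit as described (Dpt joined it with median centring and with the array letter as a block). Its signals were 290, 262, 251 and 320 in zone I, 79.6, 70.3, 105 and 85.3 in zone II, and 58.9, 59.4, 51.0 and 65.9 in zone III, and no 2 zones overlapped. The means were 281 ± 31.0, 85.0 ± 14.6 and 58.8 ± 6.10 in zones I, II and III. The difference was -1.73 ± 0.14 for zone II minus zone I (3.32-fold lower, limma adjusted p = 2.1e-06) and -2.25 ± 0.14 for zone III minus zone I (4.77-fold lower, adjusted p = 1.1e-07). The step from zone II to zone III was smaller, -0.52 ± 0.14 (1.44-fold lower, adjusted p = 0.00814), and was -0.00 (adjusted p = 0.987) when arrays were centred on ribosomal protein genes.

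Twist1 followed another order, with its highest level in zone III. On arrays A to D it had signals of 277, 208, 195 and 196 in zone I, 67.1, 80.8, 75.2 and 97.4 in zone II, and 426, 361, 388 and 370 in zone III. The zones did not overlap, and their means were 219 ± 39.0, 80.1 ± 12.9 and 386 ± 28.4. The log2 difference was -1.45 ± 0.15 for zone II minus zone I (2.73-fold lower, limma adjusted p = 1.2e-05), 2.28 ± 0.15 for zone III minus zone II (4.85-fold higher, adjusted p = 1.4e-07) and 0.83 ± 0.15 for zone III minus zone I (1.78-fold higher, adjusted p = 6.5e-04).

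Its paralog Twist2 moved less and with a wider spread. The signals were 94.4, 98.0, 121 and 109 in zone I, 79.7, 65.1, 53.4 and 52.3 in zone II, and 165, 75.9, 63.4 and 130 in zone III. Zone II lay below zone I on all arrays, while zone III overlapped both. Relative to zone I, zone II differed by -0.77 ± 0.27 (1.70-fold lower, limma adjusted p = 0.0393), zone III minus zone II was 0.71 ± 0.27 (1.63-fold higher, adjusted p = 0.0432), and zone III minus zone I was -0.06 ± 0.27 (adjusted p = 0.882). Both calls lie near the threshold: with a block for the fluidics run the adjusted p was 0.0726 for zone II minus zone I and 0.0513 for zone III minus zone II, and after quantile normalization 0.119 and 0.205. Leaving out single arrays, of any zone, also took the adjusted p past 0.05, with zone III minus zone II at 0.47 (adjusted p = 0.129) without array A of zone III.

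In the log2 ratio of Twist1 to Twist2 within each array a single factor on the whole array cancels, which does not hold for quantile normalization. It averaged 1.04 ± 0.38, 0.36 ± 0.48 and 1.93 ± 0.60 in zones I, II and III (SD, n = 4). The ratio was 1.57 ± 0.38 higher in zone III than in zone II, and the arrays of these zones did not overlap (exact two-sided permutation test, p = 0.0286, the smallest that 4 arrays against 4 allow, adjusted over 9 tests p = 0.0429). It was 0.89 ± 0.35 higher in zone III than in zone I while zone II minus zone I was -0.68 ± 0.30, and neither passed (exact permutation p = 0.0857 each, adjusted p = 0.0964). The 9 tests include those of the ratio of Tnc to Tnn, and the adjusted p depends on counting them. By this count, and with arrays taken as unpaired, the paralogs changed unequally between zones III and II. Whether the letters pair the arrays was not settled.

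**Figure D2:**
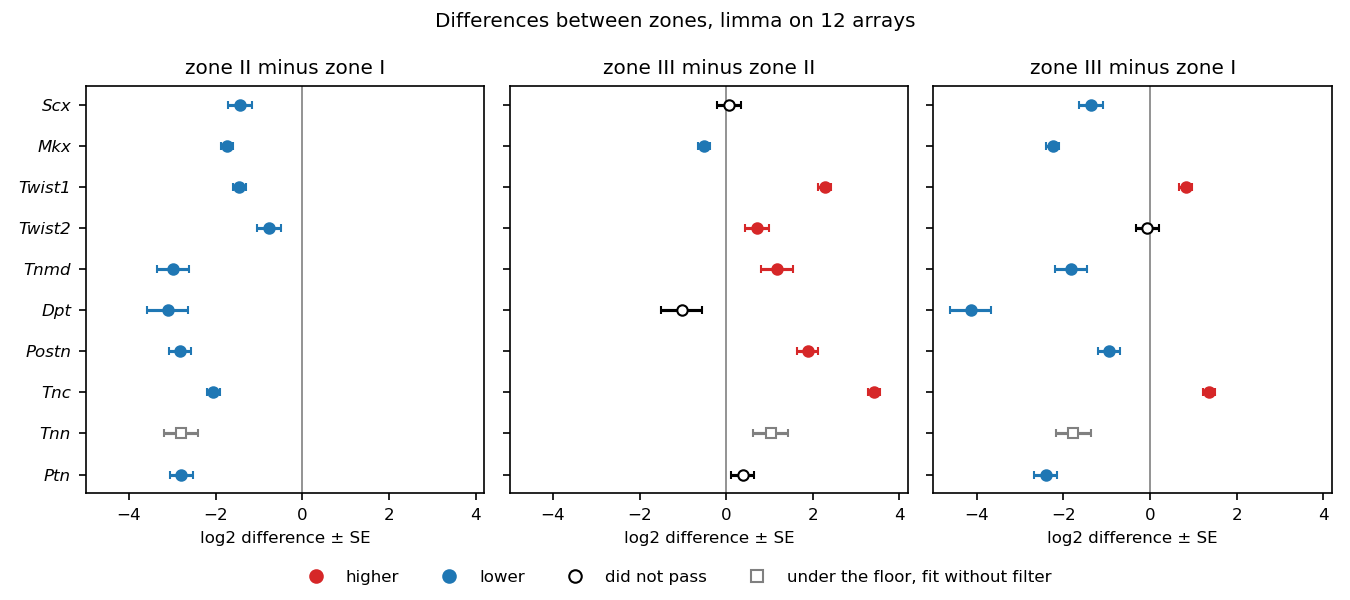
Log2 difference ± SE of each gene between zones (limma on 12 arrays), for zone II minus zone I, zone III minus zone II and zone III minus zone I; filled red is higher and filled blue lower at an adjusted p under 0.05, open circles did not pass, and grey squares are Tnn from the fit without a floor. All points of the first panel lie below 0, while in the second Tnc lies at 3.41 and Dpt at -1.03.

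Tnmd, the membrane glycoprotein of mature tendon cells, had signals of 929, 460, 600 and 573 in zone I, 160, 38.9, 69.1 and 86.9 in zone II, and 151, 146, 166 and 259 in zone III. Zone I lay above both other zones, and 1 zone II array, A, reached the range of zone III. The means were 640 ± 201, 88.8 ± 51.5 and 181 ± 53.1 in zones I, II and III. Relative to zone I, zone II differed by -2.98 ± 0.37 (7.91-fold lower, limma adjusted p = 5.5e-05) and zone III by -1.82 ± 0.37 (3.53-fold lower, adjusted p = 0.0017). Set against zone II, zone III differed by 1.17 ± 0.37 (2.24-fold higher, adjusted p = 0.0186). That call was lost without array B of zone II (0.83, adjusted p = 0.0506) and without array D of zone III (0.98, adjusted p = 0.059), and the difference was -0.08 in the fluidics run that holds array A of zones II and III.

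As Scx acts upstream of Tnmd in tendon, their ratio was followed too. The log2 ratio of Scx to Tnmd within arrays averaged -2.20 ± 0.42, -0.64 ± 0.85 and -1.74 ± 0.31 in zones I, II and III (SD, n = 4). It compares 2 probe sets, so only its change between zones is read. It was 1.56 ± 0.47 higher in zone II than in zone I, and its difference for zone III minus zone II was -1.10 ± 0.45. Both had an exact permutation p = 0.0286 and an adjusted p = 0.0429, which again depends on counting all 9 tests. Between zones III and I the ratio differed by 0.46 ± 0.26 (exact permutation p = 0.1714, adjusted p = 0.1714). Array B of zone II, where Tnmd was at 38.9, had the highest ratio, 0.59, and without it zone III minus zone II was -0.69.

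**Figure D3:**
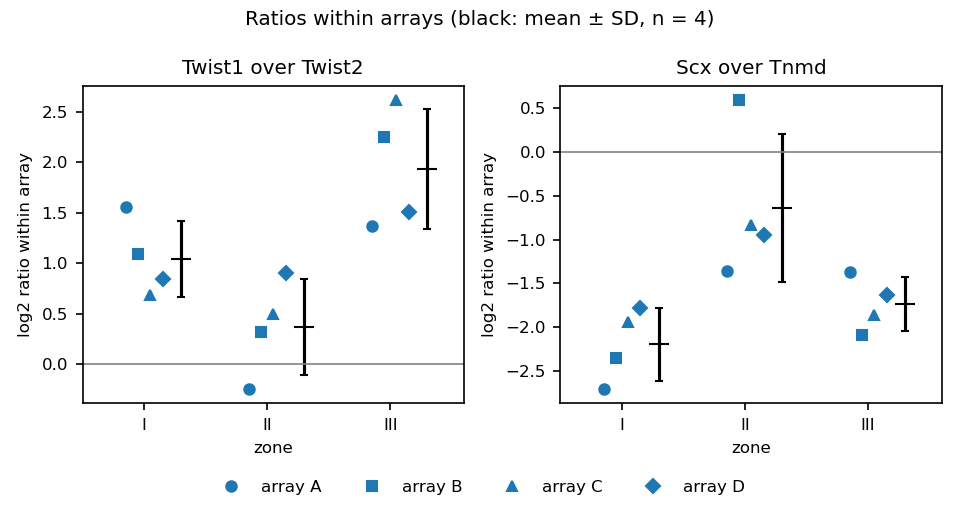
Log2 ratio within each array of Twist1 over Twist2 and of Scx over Tnmd in zones I, II and III; symbols are array letters and black bars the mean ± SD of 4 arrays. Twist1 over Twist2 averaged 1.93 in zone III and 0.36 in zone II, and Scx over Tnmd was highest in zone II, at -0.64.

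Dpt, the decorin-binding matrix protein, had the largest difference of the 9 genes between zone III and zone I. It had signals of 1056, 484, 405 and 442 in zone I, 147, 39.7, 39.6 and 71.2 in zone II, and 33.4, 48.3, 14.2 and 41.5 in zone III, so all zone III arrays were under the floor of 50. Zone I did not overlap with the other zones, which overlapped with each other. The log2 difference was -3.11 ± 0.48 for zone II minus zone I (8.64-fold lower, limma adjusted p = 3.2e-04) and -4.14 ± 0.48 for zone III minus zone I (17.6-fold lower, adjusted p = 2.5e-05). The step from zone II to zone III was -1.03 ± 0.48 (adjusted p = 0.0968) and became -1.27 (adjusted p = 0.0412) when arrays were centred on their medians. With the array letter as a block it stayed at -1.03 and was called (adjusted p = 0.0329).

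Postn, the periostin of sheaths and periosteum, had signals of 3184, 2603, 2989 and 2948 in zone I, 815, 372, 330 and 296 in zone II, and 1696, 1513, 1432 and 1466 in zone III. The 3 zones did not overlap, and zone II was the lowest. Their means were 2931 ± 242, 453 ± 243 and 1527 ± 118. Zone II minus zone I was -2.82 ± 0.25 (7.05-fold lower, limma adjusted p = 4.6e-06), zone III minus zone II was 1.88 ± 0.25 (3.67-fold higher, adjusted p = 5.8e-05), and zone III minus zone I was -0.94 ± 0.25 (1.92-fold lower, adjusted p = 0.0103).

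Tnc, tenascin-C, had the largest difference of the 9 genes between zone III and zone II. Its signals were 458, 491, 495 and 442 in zone I, 128, 118, 96.9 and 114 in zone II, and 1393, 1350, 1205 and 945 in zone III. No 2 zones overlapped, and the means were 472 ± 25.9, 114 ± 13.1 and 1223 ± 202. Zone II minus zone I was -2.05 ± 0.14 (4.14-fold lower, limma adjusted p = 4.7e-07), zone III minus zone II was 3.41 ± 0.14 (10.6-fold higher, adjusted p = 1.1e-08), and zone III minus zone I was 1.36 ± 0.14 (2.57-fold higher, adjusted p = 7.8e-06). The other Tnc probe set averaged 21.8 ± 7.83, 7.36 ± 6.77 and 146 ± 30.3 in zones I, II and III, so it passed the floor only through zone III. It gave differences of -1.93, 4.73 and 2.81 in the same order, all called (adjusted p = 0.0114, 1.0e-05 and 9.1e-04). The difference of -1.93 compares signals under the floor on every array. Its zones overlapped, with 11.5 on array B of zone I and 17 on array C of zone II. It is therefore not read as support for the lower level in zone II. The sizes of 4.73 and 2.81 also rest on signals under the floor, in zones II and I.

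Tnn, tenascin-W, was under the floor of 50 on all 12 arrays and so was not tested with the others, and whether its signals stood above background was not tested. It had signals of 39.9, 43.3, 34.1 and 43.9 in zone I, 6.0, 7.1, 4.79 and 5.42 in zone II, and 28.1, 6.32, 7.04 and 15.3 in zone III. Zone I was the highest on all arrays, and in zone III arrays A and D stood above B and C. In the limma fit without the floor zone II minus zone I was -2.80 ± 0.40 (adjusted p = 7.4e-04), zone III minus zone I was -1.77 ± 0.40 (adjusted p = 0.0097), and zone III minus zone II was 1.03 ± 0.40 (adjusted p = 0.0904). With Tnn this low, the log2 ratio of Tnc to Tnn within arrays is read as a description only. Its permutation tests were run and counted among the 9 ratio tests, but their p-values are not read. Its difference for zone III minus zone II was 2.38 ± 0.53, 3.71 with the other Tnc probe set and 2.83 when 16 was added to both signals. For zone III minus zone I it was 3.13 ± 0.54, 4.58 with the other Tnc probe set and 2.28 with 16 added, so the size of both differences is uncertain. Zone II minus zone I gave 0.75 ± 0.14 but -0.54 with 16 added, so no direction is given for it.

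Ptn, the heparin-binding factor, had signals of 2043, 1363, 1588 and 1874 in zone I, 468, 175, 233 and 191 in zone II, and 380, 294, 275 and 342 in zone III. Zone I lay above both other zones, which overlapped through array A of zone II. The means were 1717 ± 302, 266 ± 136 and 323 ± 47.5. Relative to zone I, zone II differed by -2.79 ± 0.27 (6.92-fold lower, limma adjusted p = 7.7e-06) and zone III by -2.41 ± 0.27 (5.30-fold lower, adjusted p = 1.7e-05). Zone III minus zone II was 0.38 ± 0.27 (adjusted p = 0.259) and passed without array A of zone II (0.69, adjusted p = 0.00629). The other Ptn probe sets did not settle that step, with 1.04 (adjusted p = 0.0472) on one and 0.15 (adjusted p = 0.53) on the other. In the same order they gave -3.61 (adjusted p = 2.5e-05) and -0.71 (adjusted p = 0.00882) for zone II minus zone I. For zone III minus zone I they gave -2.57 (adjusted p = 2.5e-04) and -0.56 (adjusted p = 0.0271). On the last probe set the arrays overlapped in both comparisons, so the direction was shared but the size and the lack of overlap depended on the probe set.

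Array A tended to be the highest of its zone. In zones II and III it was the only array of fluidics run 1, so letter and run cannot be told apart there. It held the highest signal of 5 of the 10 genes in zone I, of 7 in zone II and of 6 in zone III. The summed signal of 10 skeletal muscle markers, all of them with a probe set and none listed at 0, was 2437 on array A of zone I against 541 to 983 on the others of that zone, 1380 on array A of zone II against 718 to 851, and 1061 on array A of zone III against 535 to 1162. Of these 10 markers 1 was higher and 2 lower in zone II than in zone I (1 and 6 with ribosomal centring), 1 was higher and 0 lower in zone III than in zone II, and 1 was higher and 1 lower in zone III than in zone I. Sums of osteoblast, osteoclast, endothelial, macrophage and erythroid markers were also highest on array A in zones I and II, while those of the remaining cell type lists were not in both. The part of any of these markers in the level of the genes on arrays A was not tested. Without the 3 arrays lettered A, 0 of the 9 genes were higher and 9 lower in zone II than in zone I, 5 were higher and 1 lower in zone III than in zone II, and 2 were higher and 6 lower in zone III than in zone I. The 5 higher in zone III than in zone II were then not the same genes, as Twist2 lost its call (0.59, limma adjusted p = 0.0808) and Ptn gained one (0.61, adjusted p = 0.0177).

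**Figure D4:**
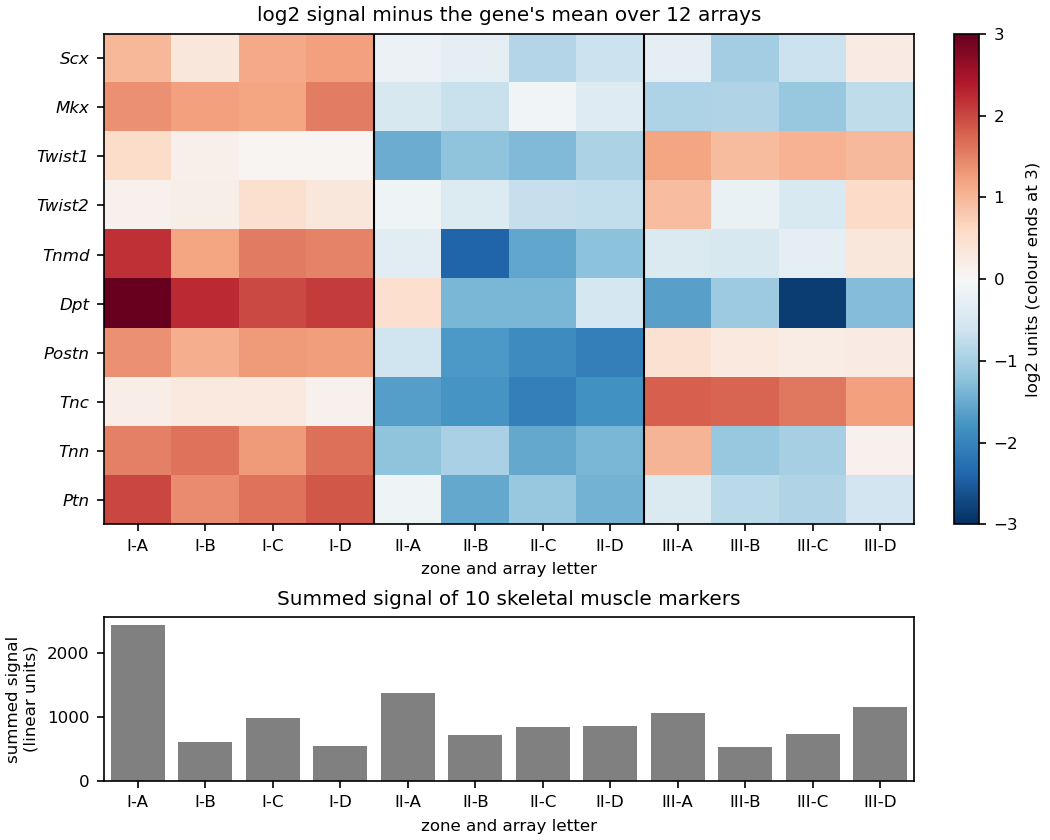
Upper panel: log2 signal of each gene on each array minus the gene's mean over the 12 arrays (colour scale in log2 units, ending at 3). Lower panel: summed linear signal of 10 skeletal muscle markers on the same arrays, from 535 on array B of zone III to 2437 on array A of zone I, where Dpt, Tnmd, Postn and Ptn also had their highest values. Within zone I, sums of some other cell markers, not drawn, were also highest on array A, while that of cartilage markers was not.

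The arrays were washed in 3 fluidics runs of 4 arrays, each with all zones, so every difference could be read within runs, though on few arrays. In run 1 array A was the only array of zones II and III. For all 10 genes every zone II array lay below every zone I array, so zone II minus zone I had to be below 0 in all 3 runs. Only its size is read, which lay between -1.88 and -0.86 for Scx, -3.53 and -2.03 for Tnmd, -1.91 and -1.55 for Mkx, -3.35 and -2.28 for Dpt, and -3.32 and -1.82 for Postn. It lay between -3.30 and -1.84 for Ptn, -2.21 and -1.88 for Tnc, -3.02 and -2.55 for Tnn, -1.84 and -1.01 for Twist1, and -1.06 and -0.27 for Twist2. Zone III minus zone II kept its sign in all runs for Tnc (3.23 to 3.66), Twist1 (1.96 to 2.67), Postn (1.06 to 2.29), Twist2 (0.36 to 1.05) and Mkx (-0.56 to -0.44), and changed sign for Scx (-0.48 to 0.45), Dpt (-2.14 to 0.29), Ptn (-0.30 to 0.69) and Tnmd (-0.08 to 1.49). Of the genes that kept it, only Twist2 had overlapping arrays, so only there could the sign have changed. Zone III minus zone I kept its sign for Tnc (1.27 to 1.55), Twist1 (0.83 to 0.95), Postn (-1.02 to -0.76), Mkx (-2.46 to -2.08), Dpt (-4.42 to -3.07), Ptn (-2.61 to -2.13), Tnmd (-2.11 to -1.47) and Scx (-2.19 to -0.95), but not for Twist2 (-0.67 to 0.78). The genes that kept their sign here had no overlap between these zones, so those signs were fixed as well. With the run as a block in the fit, the calls of the 9 genes stayed as given apart from both calls of Twist2.

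Genes that followed the same course were sought by the root mean square difference of log2 signals, each gene centred on its own mean over the 12 arrays. This is a description, as it ranks genes on the same arrays. Among the 9 genes tested Tnmd and Ptn were most alike (0.46 log2 units), then Tnc and Twist1 (0.52) and Scx and Mkx (0.55), while the paralogs Twist1 and Twist2 stood at 0.77. Nearest to Postn was Serinc2 (0.20), followed by Fbn2, the fibrillin of developing elastic fibres (0.25), which averaged 890 ± 155, 116 ± 44.6 and 331 ± 7.53 in zones I, II and III. For Tnc the nearest were Nrp2, a semaphorin and VEGF coreceptor, Ppp1r16b and Dusp6, an ERK phosphatase (0.27 each), with Nrp2 at 485 ± 27.3, 118 ± 27.1 and 954 ± 129 in zones I, II and III. Twist1 was joined by Peak1 (0.20), Fmnl2 (0.20) and Ap1s2 (0.21). Tnmd was nearest to Bex1 (0.27), Dclk1 (0.29) and Meox2, a homeobox factor of somites and muscle (0.29).

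Among the remaining genes Ptn had Dkk3 (0.28), Fbln5 (0.28) and C1qtnf2 (0.30) beside it, Mkx had Sertad4 (0.24), 2310047K21Rik (0.25) and Trpm5 (0.26), and Scx had Tcf24 (0.24), Orc5 (0.29) and Kif5c (0.29). Twist2 had Tspan9 (0.29), Grpr (0.30) and Gm17396 (0.30). For Dpt the nearest were Lrig3 (0.70), Itgbl1 (0.70) and Osr1, a zinc finger factor of irregular connective tissue (0.74). These larger distances include the spread of Dpt between arrays of the same zone, so a course of its own is not read from them. Osr1 averaged 57.6 ± 10.4, 5.86 ± 6.05 and 2.67 ± 1.32 in zones I, II and III.

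Of 19 other tendon and ligament genes 16 passed the floor, and 2 of them were higher and 11 lower in zone II than in zone I, 6 higher and 4 lower in zone III than in zone II, and 1 higher and 10 lower in zone III than in zone I. Ribosomal centring made these counts 1 and 12, 9 and 1, and 1 and 7. The median log2 differences were -1.56, 0.56 and -0.69 in the same order. Thbs4, a thrombospondin of tendon, averaged 311 ± 110, 18.9 ± 15.8 and 5.89 ± 2.06 in zones I, II and III (zone III minus zone I -5.73 ± 0.49, limma adjusted p = 1.8e-06). Col14a1, a collagen that decorates fibrils, averaged 1551 ± 145, 126 ± 43.6 and 220 ± 63.9 in zones I, II and III (zone II minus zone I -3.68 ± 0.25, adjusted p = 4.7e-07). Egr2, a zinc finger factor that drives tendon collagen genes, was instead highest in zone III, at 84.6 ± 20.1, 76.2 ± 26.1 and 372 ± 50.8 (zone III minus zone II 2.35 ± 0.26, adjusted p = 1e-05). Comp, a matrix protein of cartilage as well as tendon and in the list of cartilage markers too, was highest in zone II, at 2406 ± 513, 4813 ± 204 and 1671 ± 220.

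Of the fibrillar and sheath collagens all 8 listed passed the floor, with 0 higher and 5 lower in zone II than in zone I, 4 higher and 0 lower in zone III than in zone II, and 1 higher and 3 lower in zone III than in zone I. The medians were -1.01, 0.44 and -0.04. Quantile normalization and ribosomal centring each gave 0 and 7, 6 and 0, and 2 and 3, and median centring gave 1 and 5, 3 and 1, and 1 and 3. Col1a1, the main collagen of bone and tendon and also in the osteoblast list, averaged 1155 ± 220, 828 ± 343 and 3792 ± 124 in zones I, II and III, and it was the 1 collagen higher in zone III than in zone I (1.73 ± 0.22, limma adjusted p = 5e-05). Col6a1, of the pericellular type VI collagen, averaged 2361 ± 308, 998 ± 218 and 902 ± 126 in zones I, II and III (zone III minus zone I -1.39 ± 0.17, adjusted p = 3.4e-05). Col3a1, of soft connective tissue, averaged 4458 ± 549, 1854 ± 532 and 2565 ± 318.

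Of 16 other perichondrium and periosteum genes, all tested, 3 were higher and 10 lower in zone II than in zone I, 9 higher and 4 lower in zone III than in zone II, and 3 higher and 8 lower in zone III than in zone I, with medians of -1.15, 0.83 and -0.38. Ribosomal centring made these counts 1 and 13, 11 and 2, and 3 and 7. Pdgfra, a receptor of mesenchymal cells, averaged 1191 ± 144, 156 ± 22.5 and 711 ± 58.5 in zones I, II and III, lowest in zone II as Postn was (zone II minus zone I -2.94 ± 0.13, limma adjusted p = 2.6e-08, and zone III minus zone II 2.20 ± 0.13, adjusted p = 9.9e-08). Thy1, a surface protein of periosteal and stromal cells, was at 51.8 ± 10, 45.7 ± 14.9 and 343 ± 61.7 (zone III minus zone I 2.73 ± 0.22, adjusted p = 1.2e-06). Ogn, a leucine-rich proteoglycan, was at 1634 ± 284, 247 ± 72.6 and 465 ± 66.0, and Wnt5a, a secreted Wnt of the perichondrium, was highest in zone II at 169 ± 21.4, 422 ± 22.9 and 341 ± 40.3.

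Among 11 partners and relatives of periostin and the tenascins 9 passed the floor. Of these 1 was higher and 4 lower in zone II than in zone I (0 and 6 with ribosomal centring), 7 higher and 2 lower in zone III than in zone II (7 and 1 with ribosomal centring), and 6 higher and 2 lower in zone III than in zone I, with medians of -0.18, 1.42 and 0.77. The integrin chains that pair as a periostin receptor were both highest in zone III, Itgav at 855 ± 45.5, 767 ± 63.6 and 2648 ± 153 in zones I, II and III and Itgb3, also a chain of osteoclasts, at 40.2 ± 14.1, 53.1 ± 14.9 and 1252 ± 80.8. Itga8, a tenascin receptor chain, went the other way, at 379 ± 57.9, 101 ± 29.3 and 65.4 ± 3.44 (zone III minus zone I -2.53 ± 0.19, limma adjusted p = 7e-07). Lox, which crosslinks collagen, averaged 780 ± 157, 344 ± 131 and 2356 ± 256 (zone III minus zone II 2.84 ± 0.22, adjusted p = 6.5e-07). Tgfbi, the relative of periostin, was at 2990 ± 241, 2974 ± 466 and 617 ± 63.6 (zone III minus zone II -2.26 ± 0.13, adjusted p = 7.2e-08), while Postn rose in that comparison.

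Of the 4 genes of the pleiotrophin relative and receptors, 0 were higher and 1 lower in zone II than in zone I, 2 higher and 0 lower in zone III than in zone II, and 2 higher and 0 lower in zone III than in zone I, with medians of 0.05, 1.16 and 0.63. Median centring made the first counts 1 and 1. The middle counts were 2 and 1 with it and with quantile normalization, and the last were 3 and 0 with quantile normalization and with ribosomal centring. Mdk, the growth factor midkine, averaged 1186 ± 302, 356 ± 91.8 and 1557 ± 105 in zones I, II and III (zone III minus zone II 2.16 ± 0.19, limma adjusted p = 1.9e-06), where Ptn did not pass. Ptprz1, the receptor phosphatase that binds pleiotrophin, was at 119 ± 17.1, 119 ± 22.5 and 1292 ± 135, so that it was highest in the zone where Ptn was at 323 and not in zone I, where Ptn was at 1717.

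Among 10 bHLH partners, relatives and Id inhibitors, all tested, 0 were higher and 5 lower in zone II than in zone I, 6 higher and 1 lower in zone III than in zone II, and 3 higher and 2 lower in zone III than in zone I, with medians of -0.46, 0.60 and -0.03. The first counts were 2 and 3 with median centring, 2 and 4 with quantile normalization and 0 and 7 with ribosomal centring, and the middle counts were 4 and 2, 5 and 1, and 7 and 0 in the same order. The last counts became 3 and 3 with median centring and with quantile normalization. Tcf4, an E protein that pairs with tissue bHLH factors, averaged 1117 ± 93.3, 255 ± 68.1 and 1083 ± 66.9 in zones I, II and III (zone II minus zone I -2.16 ± 0.17, limma adjusted p = 1.6e-06). Id3, an inhibitor of E proteins, was at 884 ± 119, 882 ± 85.5 and 1838 ± 181, and Hand2 was at 80.7 ± 11.9, 33.4 ± 5.70 and 37.4 ± 4.83 (zone II minus zone I -1.27 ± 0.15, adjusted p = 4.8e-05).

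Markers of other cells of the bone moved with the same comparisons, and none was listed at 0. All 7 endothelial markers were lower in zone II than in zone I and all 7 higher in zone III than in zone II, and their summed signal ranged from 519 to 994, 192 to 420 and 2200 to 2461 in zones I, II and III. Among 6 osteoblast markers measured 5 were higher in zone III than in zone II, with sums of 1184 to 1757, 4098 to 6390 and 11584 to 12815 in zones I, II and III. In zone II 5 were higher and 0 lower than in zone I (4 and 1 with ribosomal centring). Most of the zone II sum was Ibsp, at 54.3 ± 34.4, 3362 ± 557 and 3380 ± 171, which the paper also names among factors of late hypertrophic chondrocytes. All 7 osteoclast markers were higher in zone III than in zone II, with sums of 623 to 764, 617 to 1604 and 11117 to 13277. All 5 macrophage markers tested were higher in zone III than in zone II, with sums of 1013 to 1769, 563 to 894 and 4101 to 5011. The 8 cartilage markers, which check the label of zone III, had sums of 21002 to 26189, 31885 to 35496 and 10028 to 12598 in zones I, II and III. All 8 were lower in zone III than in zone II. In zone II 4 were higher and 0 lower than in zone I (2 and 0 with quantile normalization and with ribosomal centring, 7 and 0 with median centring). Of the 6 joint and resting cartilage markers 4 were lower in zone II than in zone I and 5 lower in zone III than in zone I, with sums of 3908 to 4709, 862 to 1301 and 1105 to 1161 in zones I, II and III. Schwann and nerve sums were 424 to 464, 2618 to 3207 and 535 to 731 in zones I, II and III, and in zone II most of the sum was Mbp, a myelin protein, which averaged 22.5 ± 4.21, 2643 ± 261 and 451 ± 79.8. The neurofilament genes Nefm and Nefl were instead lower in zone II than in zone I (-3.69 ± 0.54, limma adjusted p = 2.2e-04, and -2.61 ± 0.21, adjusted p = 2.2e-06), so that of the 4 Schwann and nerve markers tested 1 was higher and 2 lower there, and 2 were higher and 2 lower in zone III than in zone II. Erythroid sums were 219 to 335, 98.5 to 471 and 324 to 501, and epidermal sums 89.2 to 138, 176 to 209 and 177 to 224 in zones I, II and III. Among 2 erythroid markers tested 1 was higher in zone III than in zone II (0 with quantile normalization and with median centring), and of the 2 epidermal markers 0 passed there (2 higher with ribosomal centring). The part of these other cells in the differences of the 10 genes was not tested.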

How the data were processed

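RNA of 3 tibial zones was measured on 12 Affymetrix MOE 430 2.0 arrays. The authors deposited linear signal intensities, 1 per probe set and array, which had been scaled to a trimmed mean of 150.0 on every array. The study's methods give both GCRMA (GeneSpring GX) and a parallel RMA run (RMAExpress), and RMA is also the tool in the submitters' processing notes. Neither source says which of them made the deposited intensities. These are linear and share a trimmed mean while their medians differ between arrays, which is not the form of quantile-normalized RMA output but that of a global scaling such as MAS5 applies, so the algorithm is uncertain. No genome build is named.

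The log2 of each signal was used without an offset. Controls (64 probe sets) were left out, and probe sets had to average 50 or more in some zone, which left 22255. The arrays had median signals of 32.4 to 43.3, and 18407 to 21170 probe sets at 50 or more. The platform annotation named 34958 probe sets by 1 gene, 932 by several and 9211 by none, and 34754 matched the RefSeq gene table by Entrez ID. limma 3.58.1 (R 4.3.3) fitted the 3 zones on 12 arrays, without a block, with Benjamini-Hochberg adjustment per comparison. Ratios within arrays were tested by exact two-sided permutation, with the arrays of different zones taken as unpaired. The limma script was tested on simulated data.

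The genes and the 16 lists (tendon and ligament, fibrillar collagens, perichondrium and periosteum, periostin and tenascin partners, pleiotrophin relative and receptors, bHLH partners, and markers of skeletal muscle, osteoblasts, osteoclasts, endothelium, macrophages, erythroid cells, Schwann cells and nerve, epidermis, cartilage, and joint and resting cartilage) were chosen with earlier results of these data known. Named were all 10 genes, some list members and some nearest genes. The list members came from up to 4 per comparison and direction with the largest change among those that passed. The nearest genes came from the 3 nearest to each gene tested. Not all of these are named, so a gene named is not always the one with the largest change. Alternatives covered the floor, scaling, offset, model, blocks, probe sets and single arrays. Precision is limited by the 4 arrays per zone. Fluidics runs came from the instrument records. With 4 pools per zone p-values measure the spread between these pools.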

Additional observations from a re-analysis of the deposited data

Results flagged for a closer look

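In each zone the highest or lowest of the 4 arrays was set against the other arrays on linear signals. The measure was the gap to its nearest neighbour over the whole range of the zone, and Dixon's 95% critical value was used. Of 30 groups, the 10 genes in 3 zones, 3 exceeded it. Chance alone flags about 1 in 20, but the groups share arrays, so 3 of 30 is not read as an excess. High values stand further apart on the linear scale than on log2, which the other tests used. Whether these 3 values would exceed it on log2 was not tested. All 3 were arrays lettered A, which were washed in the same fluidics run. Dpt stood at 1056 on array A of zone I, against 405 to 484 on the other arrays of zone I. Postn stood at 815 on array A of zone II, against 296 to 372 on the others, and Twist1 at 277 on array A of zone I, against 195 to 208. The summed skeletal muscle markers were also highest on array A in zone I (2437) and in zone II (1380). So were the sums of osteoblast, osteoclast, endothelial, macrophage and erythroid markers. Those of Schwann and nerve, epidermis, cartilage, and joint and resting cartilage markers were not highest there in both zones. The part of other tissue in these 3 values was not tested.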

How the results depend on the processing

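Under the alternatives 855 values of single genes and of the ratios within arrays were recomputed. Of these 770 were counted as the same, 30 lost the call, 7 gained one, 14 were counted as changed in sign and 34, without a test, moved by more than the spread between arrays. Values within runs and of ratios had no test and were counted as the same when they moved by less than that spread. Among them a change of sign was counted as such only where the result as described had been called. The 9 genes lower in zone II than in zone I numbered 8 to 9 and the 2 higher and 6 lower in zone III than in zone I numbered 2 and 6 when single arrays were left out, and zone II minus zone I gave 8 with quantile normalization, median centring and the run as a block. The 5 genes higher in zone III than in zone II were 3 with quantile normalization (Tnmd and Twist2 lost) and 3 to 6 when single arrays were left out, with 3 without array B of zone II or array D of zone III, where Tnmd and Twist2 were lost. The 1 gene lower there became 2 with median centring and with a replicate block (Dpt added, adjusted p = 0.0329) and 0 with ribosomal centring. Scx in zone III minus zone II was -0.19 with quantile normalization, -0.18 with median centring, -0.02 with the run as a block, -0.16 with the median of its probe sets, -0.39 on its other probe set and -0.16 to 0.27 when single arrays were left out. Tnmd gave -0.08 for zone III minus zone II within run 1. Twist2 in zone III minus zone I was 0.11 with ribosomal centring, 0.03 with the run as a block and -0.30 to 0.16 when single arrays were left out, and Tnc over Tnn in zone II minus zone I was -0.54 with 16 added. The cause was not tested. Centring on 94 ribosomal protein probe sets moved the median of all probe sets to -0.42, 0.61 and 0.18 in the 3 comparisons, and median centring to 0.11, -0.15 and -0.05, against -0.07, 0.09 and 0.01 as deposited. The labels do not say that an array letter marks a litter. Deviations of 12 same-letter pairs correlated at -0.13 to 0.26 with 8 over 0.1, against 6 of 36 pairs of other letters, and an array correlated best with its own letter in 16 of 24 cases, so whether the letters pair the zones was not settled and the fit without a block was kept. The replicate block changed no other call of the 9 genes. The alternatives without arrays A and the offset of 16 for Tnc over Tnn were chosen after seeing the data, and protein identity was not run.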
